A study of Mus musculus with 15 samples.

Results

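Lyzl4, Stox2, Haao, Igfbp4, Sfmbt2 and Rgs7bp are 6 of the 32372 genes counted in microglia of mice that had received ATV:4D9, an antibody that activates the microglial receptor TREM2. They were selected on their values: Lyzl4 and Stox2 had the 2 lowest log2 fold changes at day 7 against the control, Haao and Igfbp4 had the 2 highest at day 14, and Sfmbt2 and Rgs7bp had the 2 lowest at day 14, among genes that passed the test, had at least 10 unique molecular identifiers (UMIs, 1 per captured RNA molecule) in each of the 6 mice compared and did not overlap between the groups. All 6 passed the filter on low counts, as did 14260 genes in all. The choosing contrasts are therefore given as descriptions, without a test. Tests are given only between days whose levels did not set the fold change that chose a gene. The variance of each gene was estimated in 1 fit over all 15 mice. The mice that chose a gene therefore enter the SE and p of its tests, which are not fully independent of the choice.

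CD45 bead-enriched cells came from cortex and hippocampus of 15 male hTfR KI mice on C57BL/6J, aged 3.5 months, in which the apical domain of human transferrin receptor replaces the mouse one. Each mouse, control or treated, received a single dose of 10 mg/kg of an antibody on the antibody transport vehicle (ATV), an Fc that binds this receptor and carries antibody across the blood-brain barrier. The 5 groups of 3 mice were the control antibody ATV:RSV, sampled at day 1, and ATV:4D9, sampled 1, 7, 14 or 28 days after dosing. Each of the 3 batches contained 1 mouse per group. No ATV:RSV mice were sampled at days 7, 14 or 28, so time after dosing cannot be told apart from treatment in those contrasts. The contrasts of the 4 days with ATV:RSV share the same 3 control mice. These mice took part in choosing each of the 6 genes. The differences of the 6 genes from ATV:RSV at the other days are therefore not independent of the choice.

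The genes have unrelated roles. Haao encodes 3-hydroxyanthranilate dioxygenase, which yields the precursor of quinolinic acid in the kynurenine pathway, the route from tryptophan to NAD that is active in macrophages and microglia. Igfbp4 encodes a secreted protein that binds insulin-like growth factors and limits their access to the receptor. Rgs7bp encodes a palmitoylated protein that anchors R7 regulators of G protein signalling at the membrane. Sfmbt2 encodes a Polycomb group protein with MBT domains and is an imprinted gene in the mouse placenta. Stox2 encodes a winged-helix protein of the storkhead box family, and Lyzl4 a lysozyme-like protein best known from testis.

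In GENCODE M21 on mm10, the 6 genes are protein coding and lie on 6 chromosomes. Lyzl4 spans chr9:121577843-121642096 and Stox2 spans chr8:47180048-47446362, both on the minus strand. Haao spans chr17:83831156-83847963 on the minus strand and Igfbp4 spans chr11:99041244-99054392 on the plus strand. Sfmbt2 spans chr2:10370510-10595253 on the plus strand and holds 119 annotated miRNA genes in its introns, whose mature products a 3′ poly(A) library does not count. Rgs7bp spans chr13:104945904-105054930 on the minus strand. The antisense partners Lyzl4os and Gm13261 held 41 and 52 UMIs over all mice, against 4556 UMIs of Lyzl4 and 1190 of Sfmbt2.

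For Igfbp4, highest at day 7, and Rgs7bp, lower at all 4 days, the RefSeq and GENCODE start sites coincide. The 250 bases before the start (RefSeq, GRCm38.p6, gene strand) are shown so that the start regions can be compared. Capitals mark motif matches.
Igfbp4, chr11:99040994-99041243, plus strand: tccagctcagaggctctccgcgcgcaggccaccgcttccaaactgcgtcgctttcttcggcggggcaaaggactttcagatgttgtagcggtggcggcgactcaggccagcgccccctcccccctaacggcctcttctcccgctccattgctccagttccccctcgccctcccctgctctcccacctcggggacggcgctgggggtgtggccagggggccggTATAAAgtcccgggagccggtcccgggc
Rgs7bp, chr13:105054931-105055180, minus strand: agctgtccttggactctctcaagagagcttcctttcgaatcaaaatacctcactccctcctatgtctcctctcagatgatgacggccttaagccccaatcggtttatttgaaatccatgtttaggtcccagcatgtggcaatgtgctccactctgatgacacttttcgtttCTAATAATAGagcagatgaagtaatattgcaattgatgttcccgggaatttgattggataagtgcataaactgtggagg
The Igfbp4 window is 69.2% G or C and holds TATAAA starting 28 bases before the start site, a match found on either strand in 12.4% of 32851 such windows. The Rgs7bp window is 43.2% G or C and holds a MEF2-type site starting 79 bases before the start site, against 1.69% of windows. On either strand, the E-box CACGTG was in neither window (6.02% of all windows hold it). The same held for the AP-1 site TGANTCA (6.75% of all windows) and for the PU.1 site GAGGAAGT (2.44%). The windows of the other members were searched for the same motifs and held no match. A match is a description of the letters only.

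The files held 102043 cells in the deposited clusters 0, 1 and 2, with 5667 to 7596 cells and 32341960 to 70307384 UMIs per mouse. The 3 ATV:4D9 day 1 mice stood apart: their median cell held 8202 to 8996 UMIs, against 4694 to 6117 in the other 12 mice, and 5607 to 6597 of their cells per mouse were in cluster 2, against 74 to 245 in the others. All 10 microglial markers were detected, with a summed level of 16143 to 25847 CPM (counts scaled to a common library total), lowest in the ATV:4D9 day 1 mice (16143 to 18013 CPM). None of the markers of 11 other cell types was at 0 over all mice. The neuronal list summed to 9.51 to 12.3 CPM in ATV:RSV 6.39 to 7.73 CPM at ATV:4D9 day 7 and 4.79 to 6.54 CPM at ATV:4D9 day 1. The endothelial list summed to 22.4 to 30 CPM in ATV:RSV, 15.7 to 17.5 CPM at day 7 and 12.7 to 18.8 CPM at day 1. It summed to 19.1 to 20.9 CPM at day 14 and 20 to 22 CPM at day 28. Its sums rest mostly on 1 marker: Pecam1 held 9210 UMIs over all mice and the next, Cdh5, 1127. The monocyte list summed to 14.2 to 18.8 CPM at ATV:4D9 day 1 and at most 12.9 CPM in the other mice. A neutrophil list reached 158 CPM in the ATV:4D9 day 7 mouse of batch 3, against at most 10.4 CPM in the other 14 mice. An erythrocyte list summed to 388, 9.67 and 213 CPM in the ATV:RSV mice, with medians of 1.64 to 25 CPM and single mice of up to 131 CPM in the ATV:4D9 groups. At ATV:4D9 day 1 the astrocyte list summed to 116 to 121 CPM and the oligodendrocyte list to 29.2 to 32.3 CPM, against 221 to 271 and 48.4 to 65.6 CPM in ATV:RSV. The astrocyte sums rest mostly on 1 marker: Slc1a3 held 134167 UMIs over all mice and the next, Slc1a2, 3044. Leaving out cells with 3 or more markers of another type changed no call or direction of a member, and the part of RNA from these types in the remaining cells was not tested. In all, 1283 of 100747 barcode sequences (1.27%) occurred in more than 1 library. Cells with 3 or more markers of another type held 2.35% to 4.19% of each member's UMIs and 3.08% of all UMIs.

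Levels below are CPM after TMM scaling of the summed cells of each mouse, with the SD over 3 mice. Levels within deposited cluster 2 are CPM without TMM scaling. Tests are limma-voom with Benjamini-Hochberg adjustment over all 14260 genes, and a gene is called at an adjusted p under 0.05. In the comparison of ATV:4D9 day 28 with day 1, 3 of 6 members were called, where 69.8% of all genes were. At day 14 against day 1, 1 of Lyzl4 and Stox2 was called (background 68.7%). At day 28 against day 14, neither was (background 0%). At day 7 against day 1, 2 of the 4 others were called (background 66.9%), and at day 28 against day 7, 1 of the 4 was (background 2.13%). Against day 1 the members' share was no higher than that of all genes. For ATV:4D9 against ATV:RSV, limma-voom called 69.2%, 3.98%, 0.4% and 0% of all genes at days 1, 7, 14 and 28. At day 28 no gene, and so no member, was called. There edgeR called 0 and DESeq2 14 of 14260 genes. The share of all genes whose mice separate from those of ATV:RSV is not given here.

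**Figure D1:**
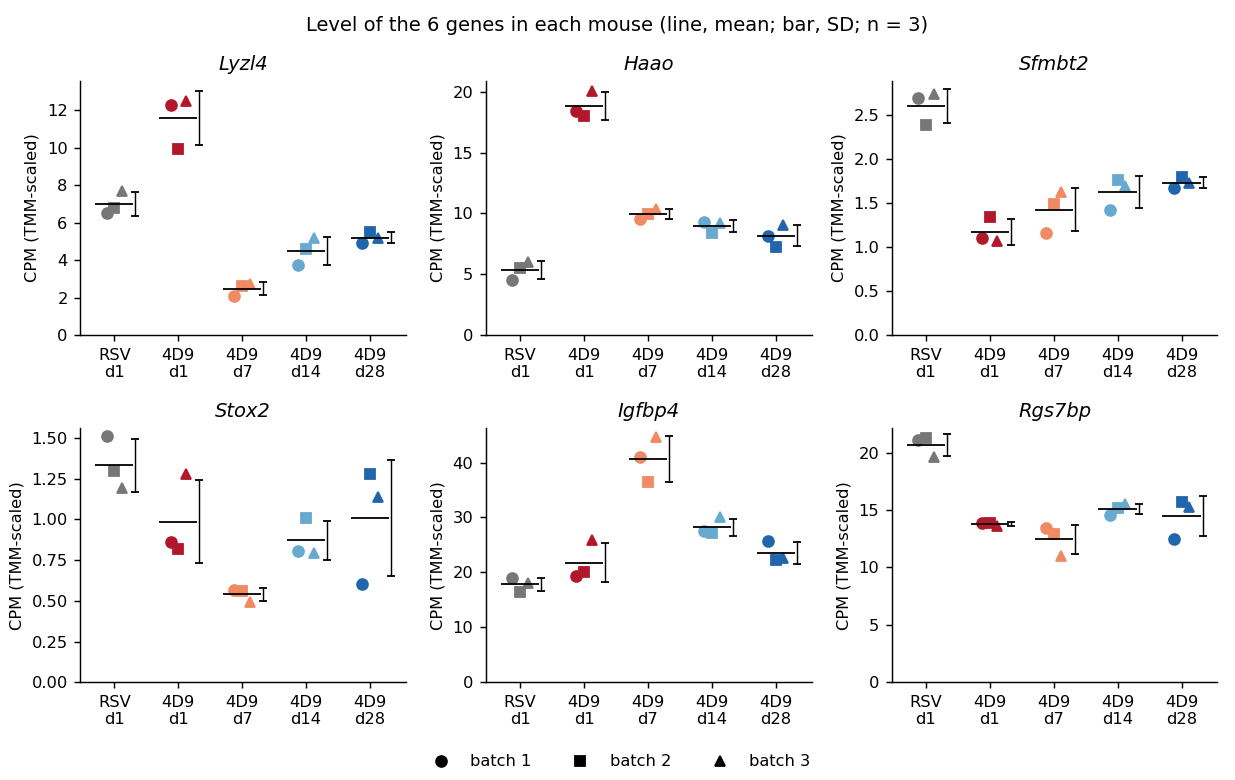
CPM (y axis, TMM-scaled) of each gene in each mouse of the 5 groups (x axis), with 1 symbol per batch, the mean as a line and the SD as a bar (n = 3). Lyzl4 and Haao are highest at ATV:4D9 day 1, Igfbp4 is highest at day 7, and Sfmbt2 and Rgs7bp are below the ATV:RSV mice at every day.

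Lyzl4 was higher at day 1 of ATV:4D9 and then lower than in the ATV:RSV mice. Its level was 6.5, 6.8 and 7.71 CPM in the ATV:RSV mice and 12.3, 9.92 and 12.5 CPM at ATV:4D9 day 1. It was 2.09, 2.61 and 2.75 CPM at day 7, 3.72, 4.58 and 5.2 CPM at day 14, and 4.9, 5.48 and 5.18 CPM at day 28. Over all cells, the 3 mice at day 1 were above every ATV:RSV mouse, which did not hold within the deposited clusters, and all mice of the 3 later days were below. The means ran from 11.6 ± 1.45 CPM at day 1 through 7 ± 0.627 CPM in ATV:RSV and 5.18 ± 0.287 CPM at day 28 to 4.5 ± 0.74 CPM at day 14 and 2.49 ± 0.347 CPM at day 7. Of the neighbours in this order, days 28 and 14 overlapped and the other neighbours were separate.

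Against ATV:RSV, the log2 difference of Lyzl4 was 0.72 (SE 0.114) at day 1, -1.48 (SE 0.172) at day 7, -0.65 (SE 0.142) at day 14 and -0.43 (SE 0.134) at day 28. The day 1 value was 1.08 per cell. The day 7 difference corresponds to a level 2.78-fold lower. In the tests between days, Lyzl4 fell by 1.37 (SE 0.129, adjusted p = 1.2e-07) on the log2 scale from day 1 to day 14 and was 1.15 lower at day 28 than at day 1 (log2 difference -1.15, SE 0.12, adjusted p = 3.83e-07). Both were lower in 3 of 3 batches, with differences of -1.72 to -1.11 and -1.33 to -0.86 within batches. From day 14 to day 28 the difference was 0.22 (95% interval -0.09 to 0.53, adjusted p = 1), higher in 2 of 3 batches.

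Stox2 had the fewest UMIs of the members, 18 to 74 per mouse. Its level was 1.51, 1.3 and 1.19 CPM in ATV:RSV, 0.864, 0.817 and 1.28 CPM at day 1, 0.566, 0.559 and 0.495 CPM at day 7, 0.809, 1.01 and 0.793 CPM at day 14, and 0.603, 1.28 and 1.14 CPM at day 28. All mice of days 7 and 14 were below every ATV:RSV mouse, whereas 1 mouse of day 1 and 1 of day 28 reached the ATV:RSV range. From highest to lowest, the groups were ATV:RSV, day 28, day 1, day 14 and day 7, and only day 7 was separate from its neighbour.

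Against ATV:RSV, the log2 difference of Stox2 was -0.50 (SE 0.237) at day 1, -1.30 (SE 0.298) at day 7, -0.64 (SE 0.258) at day 14 and -0.49 (SE 0.245) at day 28. The day 1 value was -0.12 per cell, and the day 28 value was -0.15 without the day 28 mouse of batch 1. No tested contrast of Stox2 was called. The difference was -0.14 (95% interval -0.69 to 0.42, adjusted p = 0.649) for day 14 against day 1, 0.0080 (95% interval -0.52 to 0.54, adjusted p = 0.979) for day 28 against day 1, and 0.15 (95% interval -0.42 to 0.72, adjusted p = 1) for day 28 against day 14. Changes within these intervals are compatible with the data. For the count of 0 of 2 at day 28 against day 14, neither gene had an unadjusted p under 0.05, and edgeR and DESeq2 called 0 of 2 as well. Over all genes in that contrast 338 had an unadjusted p under 0.05, while edgeR called 0 and DESeq2 70.

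Haao was highest at day 1 and stayed above the ATV:RSV mice throughout, though limma-voom called no gene against ATV:RSV at day 28. Its level was 4.5, 5.55 and 6.01 CPM in ATV:RSV and 18.4, 18 and 20.1 CPM at day 1. It was 9.57, 9.98 and 10.4 CPM at day 7, 9.27, 8.36 and 9.2 CPM at day 14, and 8.17, 7.28 and 9.03 CPM at day 28. No ATV:4D9 mouse overlapped an ATV:RSV mouse, and days 14 and 28 were the only neighbours in the order whose mice overlapped.

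The log2 difference of Haao against ATV:RSV was 1.83 (SE 0.102) at day 1, a level 3.55-fold higher, and 0.93 (SE 0.114) at day 7, 0.76 (SE 0.113) at day 14 and 0.62 (SE 0.113) at day 28. Over all cells, Haao fell by 0.90 (SE 0.0886, adjusted p = 2.14e-07) on the log2 scale from day 1 to day 7. At day 28 it was 1.20 below day 1 (log2 difference -1.20, SE 0.088, adjusted p = 5.77e-09), lower in 3 of 3 batches in both contrasts (-0.94 to -0.85 and -1.3 to -1.15). Within deposited cluster 0 the day 7 mice (9.84, 10 and 10.7 CPM) were within the range of day 1 (6.89 to 14.1 CPM). The same held in cluster 1 (10, 10.5 and 10.1 CPM, day 1 at 9.69 to 16.4 CPM). In cluster 2 they were below day 1 (8.63, 12.2 and 15 CPM, day 1 at 16.4 to 17.9 CPM). The day 28 mice overlapped day 1 in cluster 0 and were below it in clusters 1 and 2. Contrasts with day 1 were not tested within clusters. Day 28 against day 7 was not called (-0.30, 95% interval -0.52 to -0.09, adjusted p = 0.186), although all 3 mice of day 28 were below all 3 of day 7.

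Igfbp4 was the only member with its highest level at day 7. It was at 18.9, 16.5 and 18 CPM in ATV:RSV, 19.4, 20 and 25.9 CPM at day 1, 41, 36.4 and 44.7 CPM at day 7, 27.6, 27.1 and 30 CPM at day 14, and 25.8, 22.2 and 22.7 CPM at day 28. Days 28 and 1 were the only neighbours that overlapped. Over all cells, every ATV:4D9 mouse was above the 3 ATV:RSV mice on this scale, which at day 1 did not hold within the deposited clusters. The separation at day 1 also depended on the scaling: by library size alone the day 1 mice were at 17.6, 18.1 and 22.7 CPM and the ATV:RSV mice at 19.9, 17.5 and 19 CPM, so that they overlapped. Per 1000 cells they were at 174, 167 and 202 UMIs against 132, 100 and 116 UMIs and did not. The mice of days 7, 14 and 28 were above those of ATV:RSV on all 3 scales.

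Against ATV:RSV, the log2 difference of Igfbp4 was 0.27 (SE 0.109) at day 1, 1.20 (SE 0.107) at day 7, 0.67 (SE 0.109) at day 14 and 0.40 (SE 0.11) at day 28. The day 1 value was 0.03 with library size alone, 0.64 per cell and 0.15 without the day 1 mouse of batch 3. The rise from day 1 to day 7 was 0.93 (SE 0.0999, adjusted p = 6.03e-07), a 1.9-fold higher level, and was present in 3 of 3 batches (0.79 to 1.08). From day 7 to day 28 Igfbp4 fell by 0.79 (SE 0.101, adjusted p = 0.000211) on the log2 scale, also in 3 of 3 batches (-0.98 to -0.67). Days 28 and 1 were not called different (0.14, 95% interval -0.08 to 0.36, adjusted p = 0.251). Without the ATV:4D9 day 1 mouse of batch 3 this difference was 0.25 (adjusted p = 0.0256), with adjusted p from 0.00488 to 0.708 over the alternatives.

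Sfmbt2 was lowest at day 1. Its level was 2.7, 2.39 and 2.74 CPM in ATV:RSV, 1.1, 1.34 and 1.07 CPM at day 1, 1.16, 1.49 and 1.63 CPM at day 7, 1.42, 1.77 and 1.7 CPM at day 14, and 1.67, 1.8 and 1.73 CPM at day 28. All ATV:4D9 mice were below the ATV:RSV mice, and each pair of neighbours among the 4 days overlapped.

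The log2 difference of Sfmbt2 against ATV:RSV was -1.15 (SE 0.145) at day 1, -0.86 (SE 0.152) at day 7, -0.69 (SE 0.143) at day 14 and -0.59 (SE 0.137) at day 28. Sfmbt2 was 0.57 higher at day 28 than at day 1 on the log2 scale (SE 0.153, adjusted p = 0.0038), in 3 of 3 batches (0.43 to 0.69). When UMIs were taken per cell this difference was 0.27 and was not called (adjusted p = 0.22, range over alternatives 0.00032 to 0.22). Neither day 7 against day 1 (0.29, 95% interval -0.06 to 0.65, adjusted p = 0.133) nor day 28 against day 7 (0.27, 95% interval -0.07 to 0.61, adjusted p = 0.562) was called. Without the day 7 mouse of batch 1, the first of these was 0.42 (adjusted p = 0.0459, range over alternatives 0.0334 to 0.493).

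Over all cells, Rgs7bp was lower than in ATV:RSV at all 4 days, which at day 1 did not hold within the deposited clusters. Its level was 21.1, 21.3 and 19.6 CPM in ATV:RSV, 13.9, 13.9 and 13.6 CPM at day 1, 13.4, 12.9 and 11 CPM at day 7, 14.6, 15.2 and 15.5 CPM at day 14, and 12.5, 15.7 and 15.3 CPM at day 28. The highest ATV:4D9 mouse, at 15.7 CPM, was below the lowest ATV:RSV mouse, at 19.6 CPM. Among the 4 days, days 14 and 28 overlapped, as did days 28 and 1, and day 7 was the lowest.

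The log2 difference of Rgs7bp against ATV:RSV was -0.58 (SE 0.0811) at day 1, -0.75 (SE 0.0888) at day 7, -0.45 (SE 0.0833) at day 14 and -0.52 (SE 0.0824) at day 28. The day 1 value was -0.22 per cell. Over all cells, with TMM scaling, no tested contrast was called: the difference was 0.06 (95% interval -0.12 to 0.24, adjusted p = 0.549) for day 28 against day 1, -0.17 (95% interval -0.36 to 0.02, adjusted p = 0.108) for day 7 against day 1, and 0.23 (95% interval 0.03 to 0.42, adjusted p = 0.311) for day 28 against day 7. With library size alone day 28 against day 1 was called (0.28, adjusted p = 0.00839, range over alternatives 0.00839 to 0.985), and per cell day 7 against day 1 was called (-0.62, adjusted p = 3.07e-05, range over alternatives 3.07e-05 to 0.823).

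**Figure D2:**
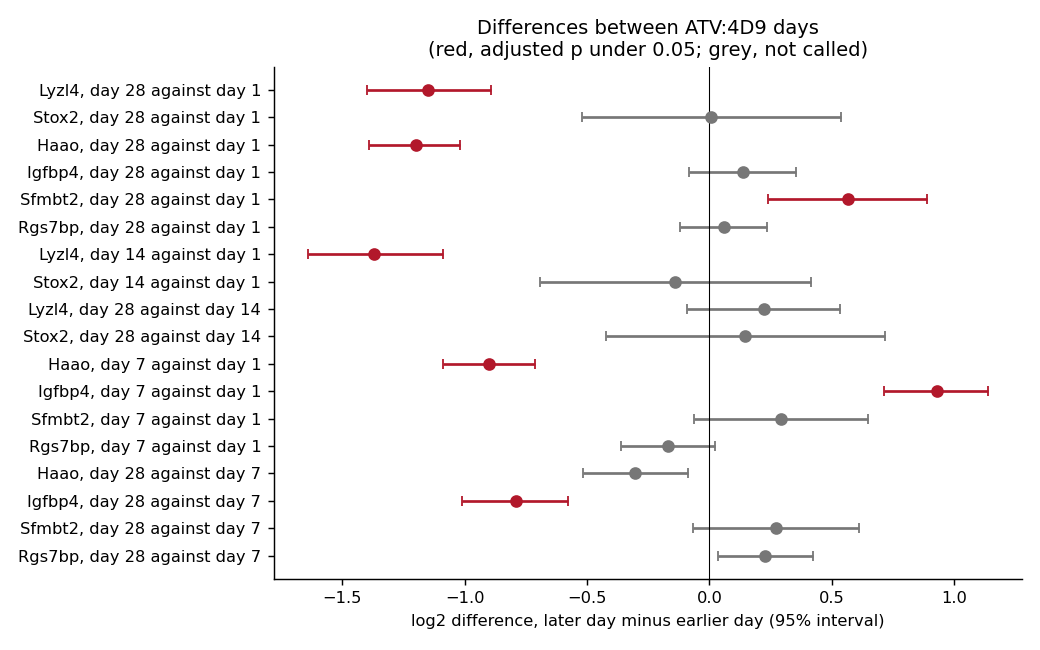
Log2 difference between 2 days of ATV:4D9 (x axis, later minus earlier, with its 95% interval) for each tested gene and contrast (y axis), in red where the adjusted p was under 0.05. Lyzl4 and Haao are below 0 against day 1, at -1.37 to -0.90, and Igfbp4 is above 0 at day 7 against day 1 (0.93) and below 0 at day 28 against day 7 (-0.79).

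The scaling moved the contrasts with day 1. Taking UMIs per cell, with no scaling by library size, put the median of all genes at -0.25 for day 28 against day 1 and at -0.44 for day 7 against day 1, and scaling by library size alone put them at 0.26 and 0.17. Lyzl4 and Haao at day 28 against day 1 were then at -1.44 and -1.50 per cell, and Haao and Igfbp4 at day 7 against day 1 were at -1.37 and 0.45, in the direction of the TMM values. Per cell, the differences of Stox2 (-0.29), Igfbp4 (-0.16) and Rgs7bp (-0.23) at day 28 against day 1 and of Sfmbt2 (-0.17) at day 7 against day 1 had the opposite sign. The called per-cell value of Rgs7bp at day 7 against day 1 (-0.62) was below the median of -0.44.

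**Figure D3:**
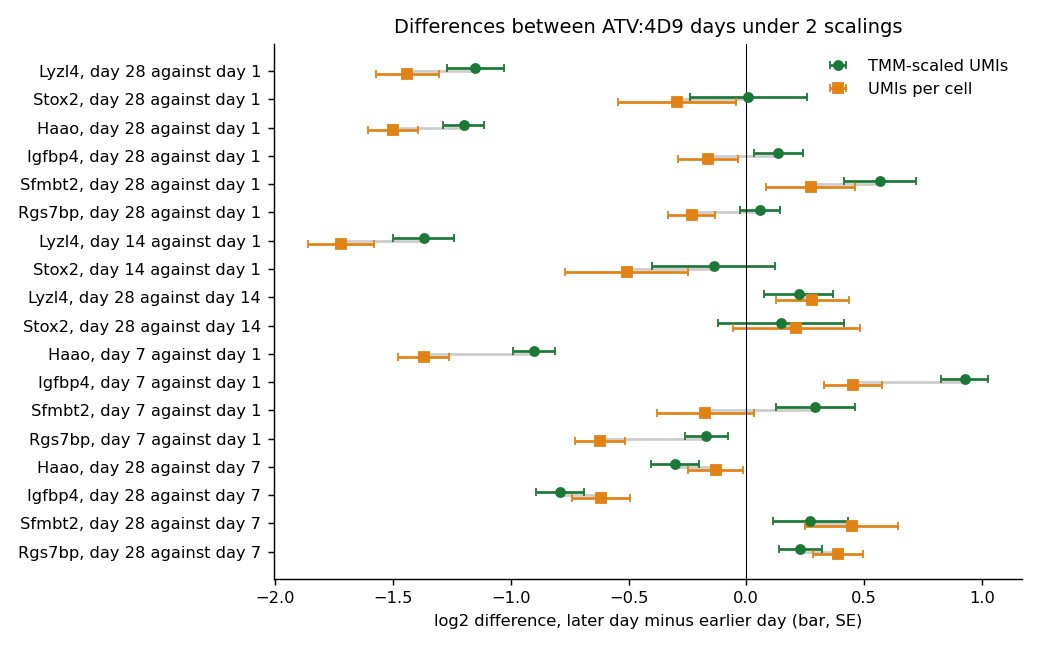
Log2 difference between 2 days of ATV:4D9 (x axis, later minus earlier, bar as SE) for each tested gene and contrast (y axis), from TMM-scaled UMIs (circles) and from UMIs per cell (squares). The per-cell value is the lower one in each contrast with day 1, for example -1.37 against -0.90 for Haao at day 7.

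The UMIs of each member were spread over many cells. Between 69.5% (Igfbp4) and 92.4% (Sfmbt2) of a member's UMIs were in cells that held 1 UMI of it. The most UMIs of Igfbp4 in a single cell were 8, and cells with 3 or more held 7.88% of its UMIs. For Stox2 and Sfmbt2, 1 cell each held 3 UMIs and no cell held more.

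Clusters 0 and 1 hold most cells of all groups but ATV:4D9 day 1, and the later days were compared within each. In cluster 0, Igfbp4 was at 18.4 ± 1.12 CPM in ATV:RSV, 41.7 ± 3.9 CPM at day 7, 29.4 ± 1.58 CPM at day 14 and 24.3 ± 2.12 CPM at day 28. In cluster 1 it was at 17.7 ± 1.61, 43.8 ± 6.82, 28.2 ± 2.11 and 25.1 ± 2.41 CPM. The fall of Igfbp4 from day 7 to day 28 was called in both, at -0.79 (SE 0.0776, adjusted p = 2.81e-05) in cluster 0 and -0.82 (SE 0.104, adjusted p = 3.04e-05) in cluster 1, where 1.94% and 2.65% of genes were called. Haao (-0.31 and -0.29), Sfmbt2 (0.14 and 0.51) and Rgs7bp (0.19 and 0.28) were not called in that contrast in cluster 0 or 1.

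Lyzl4 within cluster 0 was at 6.68 ± 0.372 CPM in ATV:RSV, 2.28 ± 0.443 CPM at day 7, 4.34 ± 0.879 CPM at day 14 and 5.17 ± 0.0999 CPM at day 28. Within cluster 1 it was at 8.49 ± 1.03, 2.76 ± 0.449, 5.24 ± 1.15 and 5.54 ± 0.554 CPM. Lyzl4 and Stox2 were not called at day 28 against day 14 in cluster 0 (0.26 and -0.0045, both adjusted p = 1) or in cluster 1 (0.13 and 0.34, both adjusted p = 0.999), where 0% and 0.325% of genes were called. Neither gene had an unadjusted p under 0.05 there, and edgeR called 0 of 2 in both clusters.

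At ATV:4D9 day 1, clusters 0 and 1 held only 180 to 555 cells per mouse. In those cells Rgs7bp was at 21.8 ± 4.27 CPM in cluster 0 and 22.3 ± 5.68 CPM in cluster 1, where the ATV:RSV mice were at 21.1 ± 1.31 and 22.8 ± 0.89 CPM, while in cluster 2 of the same mice it was at 11.8 ± 0.173 CPM. In the 76 to 165 cells of cluster 2 per ATV:RSV mouse it was at 9.98 ± 1.41 CPM, from 7 to 13 UMIs a mouse. Rgs7bp at day 1 was thus not below ATV:RSV in all 3 mice of any cluster. At day 7 it was at 13.8, 12.9 and 11.3 CPM in cluster 0 and 14.5, 15.2 and 12.3 CPM in cluster 1. These were below every day 1 mouse of the same cluster (17.7 to 26.2 and 16.6 to 27.9 CPM, from 17 to 58 UMIs a mouse). At day 28 it was at 12.5, 15.4 and 15.1 CPM in cluster 0, below day 1. In cluster 1 it was at 14.3, 18.3 and 17.9 CPM, overlapping day 1. These differences from day 1 were not tested. Levels in cluster 2 carry no TMM scaling, unlike those in clusters 0 and 1, so they compare only within cluster 2. Haao at day 1 was at 11.1 ± 3.74, 12.3 ± 3.61 and 17.1 ± 0.747 CPM in clusters 0, 1 and 2, where the highest ATV:RSV mice were at 6.88, 5.06 and 15 CPM and the lowest day 1 mice at 6.89, 9.69 and 16.4 CPM. The value of 6.89 CPM rests on 7 UMIs of Haao, and the ATV:RSV values of cluster 2 rest on 4 to 23 UMIs a mouse. Lyzl4 at day 1 was at 12.7, 8.25 and 2.95 CPM in cluster 0 (3 to 28 UMIs a mouse), against 6.43 to 7.11 CPM in ATV:RSV, and at 14.3, 5.05 and 4.93 CPM in cluster 1 (3 to 37 UMIs), against 7.55 to 9.6 CPM. In cluster 2 it was at 11, 9.05 and 11.2 CPM, against 5.2, 8.77 and 10.1 CPM from 6 to 9 UMIs a mouse in ATV:RSV. For Lyzl4 the day 1 mice were on both sides of the ATV:RSV mice in clusters 0 and 1 and overlapped them in cluster 2. Igfbp4 at day 1 was at 16 to 21.6 CPM in cluster 0 and 11.5 to 19.5 CPM in cluster 1, overlapping ATV:RSV (17.5 to 19.6 and 16 to 19.2 CPM). In cluster 2 it was at 17.5, 18.1 and 22.9 CPM, within the range of ATV:RSV (33.8, 11.7 and 30.4 CPM, from 8 to 52 UMIs a mouse). Stox2 at day 1 was at 1.82, 2.43 and 1.97 CPM in cluster 0, above the 1.11 to 1.49 CPM of ATV:RSV and so opposite to its difference over all cells, but from 2 to 5 UMIs a mouse. In cluster 1 it rested on 0 to 5 UMIs a mouse. Sfmbt2 at day 1 rested on 11 UMIs over the 3 mice in cluster 0 and 8 in cluster 1, and gave no usable level there. The clusters were deposited by the authors, and the genes that define them may include these, so the values between clusters are a description.

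**Figure D4:**
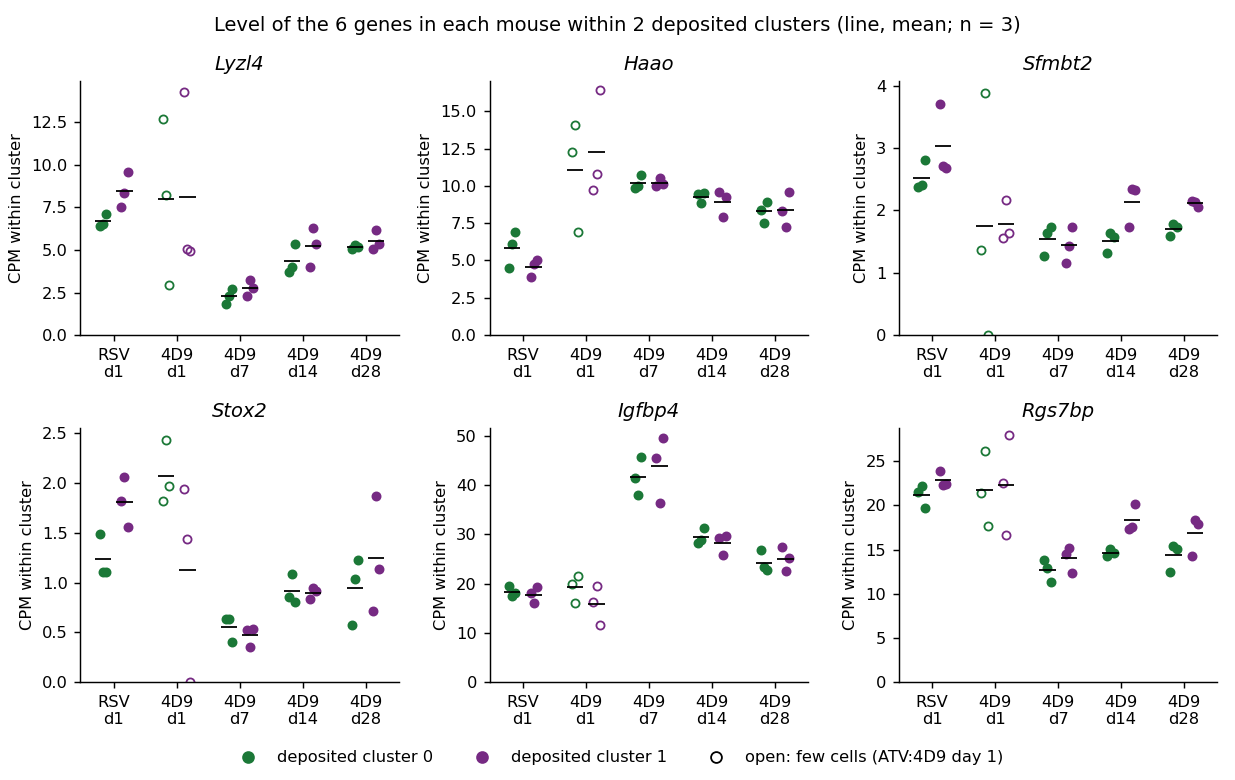
CPM within deposited cluster 0 (green) and cluster 1 (purple) of each gene in each mouse (points) of the 5 groups (x axis), with the mean as a line (n = 3). Open points are the ATV:4D9 day 1 mice, with 180 to 555 cells per mouse and cluster, and the course of Igfbp4 from day 7 to day 28 is alike in both clusters.

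At the limits of the selection, Stox2 (-1.30) was the last gene inside at day 7, and Slc17a7, the vesicular glutamate transporter of neurons, was the first outside (-1.16, SE 0.306), among 126 lower genes that met the conditions. At day 14 Igfbp4 (0.67) was the last inside and Treml2, a receptor of the TREM family, the first outside (0.61, SE 0.103), among 55 higher genes. Sfmbt2 and Rgs7bp were the only 2 lower genes at day 14, so none was left outside. This holds for limma-voom with TMM scaling. Genes called lower at day 14 numbered 4 with edgeR, 18 with DESeq2, 1 with library size alone and 1 with DESeq2 size factors. Per cell, 0 of 14260 genes were called at day 14 in either direction. The neuronal list and the endothelial list, which rests mostly on Pecam1, were below ATV:RSV at days 7 and 1. Stox2 was also lower at both days (1 of its 3 day 1 mice within the ATV:RSV range), while Lyzl4 was lower at day 7 and higher at day 1. At days 14 and 28 the endothelial list was below ATV:RSV too, as were Lyzl4, Sfmbt2 and Rgs7bp, while Haao and Igfbp4 were above. Stox2 was below at day 14 and overlapped ATV:RSV at day 28. The part of these lists in the values of the members was not tested beyond leaving out cells with markers of another type.

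The genes with the most similar course were sought over the 12 mice outside ATV:4D9 day 1, as Pearson's r of log2 CPM with each of 10905 genes that had at least 10 UMIs in every mouse. These are the largest of many correlations over mice of 4 groups and carry no p-value. Dok3 was among the 2 genes most like Lyzl4 (r = 0.95). Stox2 was most like Zfp532 (0.942) and Tmx3 (0.921), and Haao like Bcl2a1c (0.954), of a family of near-identical paralogs, and Plpp2 (0.943). Igfbp4 was most like Arhgap4 (0.967) and Lag3 (0.964), Sfmbt2 like Slc16a9 (0.902) and Mmp15 (0.871), and Rgs7bp like Mtss1 (0.959) and Nav1 (0.935). The 12 mice are the 3 ATV:RSV mice and the 9 of days 7 to 28, so the correlations carry the difference between control and treated mice as well as the course over days. At ATV:4D9 day 1 several pairs parted. Dok3 was at 10.4 ± 0.819 CPM at day 1 and 28.1 ± 1.07 CPM in ATV:RSV, where Lyzl4 was above. Lag3 was at 176 ± 35.5 against 269 ± 31.8 CPM and Arhgap4 at 38.7 ± 1.8 against 47.4 ± 2.37 CPM, whereas Igfbp4 was at 21.8 ± 3.57 against 17.8 ± 1.23 CPM. Of the genes like Haao, Bcl2a1c was above ATV:RSV at day 1, at 3.04 ± 0.722 against 0.641 ± 0.0949 CPM, and Plpp2 was at 6.44 ± 0.194 against 7.39 ± 0.768 CPM.

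Of 88 other genes of 5 pathway lists, 58 passed the filter on low counts, and these were tested against ATV:RSV. At day 1, 39 of 58 were called, 67.2% against 69.2% of all genes, with 15 higher (25.9%, background 34.7%) and 24 lower (41.4%, background 34.6%). At day 7, 2 of 58 were called, 3.45% against 3.98% of all genes, with 1 higher (background 2.99%) and 1 lower (background 0.996%). At day 14, 0 of 58 were called by limma-voom, against a background of 0.4% (0.386% higher, 0.014% lower), and at day 28, 0 of 58 were called against a background of 0%. At an unadjusted p under 0.05 there were 0 genes at day 14 and 2 at day 28, and edgeR and DESeq2 called 0 at both days. The share called over the 58 genes together was near that of all genes at days 1 and 7, but the single lists at day 1 ranged from 0 of 1 lysozyme gene and 25% (R7 RGS complex) to 92.3% (Polycomb group and MBT domain). These shares depended on the scaling, being 62.5% and 84.6% for the last 2 lists with library size alone (all genes 74.7%) and 25% and 69.2% per cell (all genes 62.7%). The directions at day 1 did so too: with library size alone 12 list genes were called higher and 30 lower (3690 and 6959 of all genes, against 4942 and 4930 with TMM), and per cell 20 higher and 12 lower (7037 and 1908 of all genes). The median of all genes at day 1 was -0.05 with TMM, -0.29 with library size alone and 0.32 per cell.

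Around Haao, 13 of 19 kynurenine and NAD genes were tested, and at day 1 3 rose and 4 fell (53.8% called, background 69.2%), with a median log2 difference of -0.14 against -0.05 over all genes. Got2, a transaminase that also acts on kynurenine, rose from 20.4 ± 1.56 to 47.9 ± 2.11 CPM (1.24, adjusted p = 2.66e-11), and Nampt, the rate-limiting enzyme of NAD salvage, from 23.8 ± 2.66 to 55.2 ± 1.32 CPM (1.22, adjusted p = 7.73e-10). Kynu, the enzyme directly upstream of Haao, fell from 0.45 ± 0.0788 to 0.149 ± 0.106 CPM (-1.68, SE 0.43, adjusted p = 0.00259), both levels from few UMIs. Qprt, which uses quinolinic acid directly downstream, fell from 4.67 ± 0.602 to 1.78 ± 0.0872 CPM (-1.38, adjusted p = 8.18e-07). Ido1 held 14 UMIs and Kmo 34 UMIs over all mice and were not tested. At days 7, 14 and 28, 0 of 13 were called, where 3.98%, 0.4% and 0% of all genes were, and nothing is read from these counts.

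Around Igfbp4, 10 of 18 genes of the insulin-like growth factor system were tested, and at day 1 2 rose and 4 fell (60% called, background 69.2%), with a median of -0.28 against -0.05 over all genes. The receptor Igf2r rose from 0.125 ± 0.087 to 1.25 ± 0.0328 CPM (3.49, SE 0.442, adjusted p = 3.46e-06) and the binding protein Igfbp6 from 0.552 ± 0.021 to 1.57 ± 0.23 CPM (1.48, adjusted p = 3.39e-06). The ATV:RSV mice held 38985589 to 46425480 UMIs each, so the ATV:RSV level of Igf2r rests on few UMIs and the size of its rise is uncertain. The insulin receptor Insr fell from 26.6 ± 0.758 to 11.8 ± 1.7 CPM (-1.17, adjusted p = 5.78e-08), and its adaptor Irs2 from 24 ± 2.14 to 13.2 ± 0.686 CPM (-0.86, adjusted p = 1e-06). At day 7, 0 of 10 were called, where 3.98% of all genes were, and nothing is read from that count. The proteases Pappa and Pappa2, which cleave binding proteins of the family, held 2 and 0 UMIs over all mice.

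Around Sfmbt2, 26 of 30 Polycomb group and MBT domain genes were tested, and at day 1 10 rose and 14 fell, 92.3% called against 69.2% of all genes, with a median of -0.19 against -0.05 over all genes. Per cell, 12 were called higher and 6 lower, 69.2% against 62.7% of all genes. The methyltransferase Ezh2 rose from 8.18 ± 1.91 to 80.3 ± 15.2 CPM (3.29, adjusted p = 1.49e-10), while its paralog Ezh1 fell from 26.6 ± 1.63 to 12.6 ± 2.06 CPM (-1.07, adjusted p = 8.18e-07). Of the chromobox subunits, Cbx2 rose from 0.381 ± 0.208 to 1.32 ± 0.251 CPM (1.86, SE 0.381, adjusted p = 0.000422) and Cbx7 fell from 11.8 ± 0.72 to 4.27 ± 0.379 CPM (-1.45, adjusted p = 1.3e-09). The ATV:RSV level of Cbx2 rests on few UMIs. At day 7 Bmi1, a subunit of Polycomb repressive complexes, was the 1 gene called, falling from 25.9 ± 2.14 to 20.1 ± 0.49 CPM (-0.36, adjusted p = 0.00479).

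Around Rgs7bp, 8 of 12 genes of the R7 RGS complex were tested, and at day 1 0 rose and 2 fell, 25% called against 69.2% of all genes, with a median of -0.11 against -0.05. With library size alone 0 were called higher and 5 lower, 62.5% against 74.7% of all genes. The 2 that fell with TMM scaling were the G protein alpha subunits Gnai1, from 0.531 ± 0.041 to 0.285 ± 0.0225 CPM (-0.88, adjusted p = 0.0237), and Gnao1, from 1.4 ± 0.17 to 0.952 ± 0.223 CPM (-0.55, adjusted p = 0.0159). Per cell neither was called (-0.52, adjusted p = 0.17, and -0.20, adjusted p = 0.445), and 2 other genes of the list were called higher. At day 7, 0 of 8 were called (background 3.98%), with Gnao1 at -0.72 (adjusted p = 0.0678), which edgeR called. The binding partners of Rgs7bp were scarce or not called at day 1: Rgs7 was at 0.143 ± 0.0817 CPM and Gnb5, the beta subunit of the complex, at 5.17 ± 0.659 CPM. Around Lyzl4, 1 of 9 lysozyme genes was tested. Lyz2, lysozyme of macrophages and neutrophils, rose from 287 ± 51.5 to 438 ± 57.7 CPM at day 7 (0.62, adjusted p = 0.0148). It was at 401, 409 and 505 CPM in the day 7 mice, and the mouse at 505 CPM is the one of batch 3 whose neutrophil list summed to 158 CPM. Without cells that held 3 or more markers of another type the difference was 0.64 (adjusted p = 0.0145). The adjusted p of Lyz2 was 0.0704 without the ATV:RSV mouse of batch 1, 0.0708 without that of batch 2 and 0.0955 without the day 7 mouse of batch 3. Lyz1, with 61 UMIs, is a near-identical paralog, so the counts of the pair may be affected by reads that match both.

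**Figure D5:**
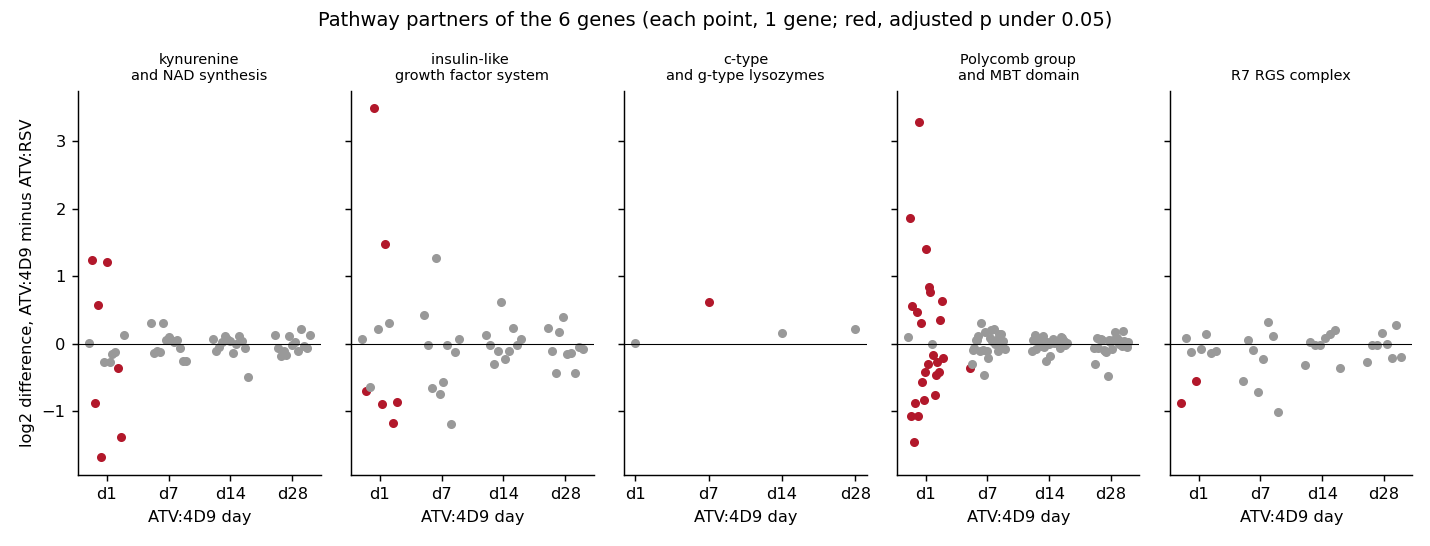
Log2 difference between ATV:4D9 and ATV:RSV (y axis) of the 58 tested genes of the 5 pathway lists (points) at days 1, 7, 14 and 28 (x axis), in red where the adjusted p was under 0.05. Called genes lie at day 1 (39 of 58), with Lyz2 and Bmi1 called at day 7 and none later.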

How the data were processed

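Single-cell 3′ libraries of 15 mice were analysed. Groups and batches came from the labels, which mention a further control animal not analysed here. Per the labels the authors used Cell Ranger 4.0.0 (submitters' processing notes) and mm10, whereas the study's methods name later Cell Ranger versions. They also name Seurat. The authors deposited raw UMI counts per gene and cell. The deposited cell table gave the percent of mitochondrial UMIs, at most 10% in a cell. The median per mouse was 3.11 to 3.38% in ATV:RSV, 3.96 to 4.5% at ATV:4D9 day 1 and 3.49 to 4.04% at day 7. It was 3.13 to 3.64% at day 14 and 3.25 to 3.62% at day 28. The part of this in the values was not tested. Whether intronic reads were counted is not given in the sources used here. Matrix sums equalled the deposited counts in 102043 of 102043 cells. The genes and lists were chosen with earlier results of these data known. No doublet caller was run.

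Counts were summed per mouse, filtered by filterByExpr (minimum count 10, minimum total count 15), TMM-scaled and fitted with limma-voom as group means over all 15 mice (limma 3.58.1, edgeR 4.0.16, R 4.3.3). DESeq2 1.42.0 was an alternative. CPM are TMM-scaled. Marker sums use unscaled library sizes. Within clusters at least 50 cells per mouse were required. p-values measure the spread between mice. The fits were run on simulated counts in which some genes changed at day 28 only, read for day 28 against day 14. That setting does not cover the contrasts with day 1, where most genes were called, and its outcome is not given here. Named genes were the 6 members, the first genes outside the selection, the 2 most similar genes per member (1 of them is not reported here), and per list and day up to 2 called highest and 2 called lowest whose 3 mice lay outside the ATV:RSV range. A few further list genes and markers were named after their values were seen (Ido1, Kmo, Pappa, Pappa2, Rgs7, Gnb5 and Lyz1).

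Mice with the same number share a batch per the labels, which is where the pairing comes from. Across genes, deviations from the group mean had a mean correlation of 0.0358 between mice of the same batch (30 pairs) and of -0.0176 between mice of different batches (60 pairs). No pair of libraries of a group was a copy (chi-square per degree of freedom 10.6 to 28.7).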

Additional observations from a re-analysis of the deposited data

Results flagged for a closer look

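The response of several members differed between days of ATV:4D9 by a test of the difference itself (limma-voom, adjusted p under 0.05). On the log2 scale this held for Lyzl4 (-1.15), Haao (-1.20) and Sfmbt2 (0.57) at day 28 against day 1, for Lyzl4 (-1.37) at day 14 against day 1, for Haao (-0.90) and Igfbp4 (0.93) at day 7 against day 1, and for Igfbp4 (-0.79) at day 28 against day 7. Of all genes, 69.8%, 68.7%, 66.9% and 2.13% were called in these contrasts, in this order. Against day 1 the members were thus called no more often than all genes. The cells of day 1 held more UMIs and lay mostly in another deposited cluster than those of the other days, and the part of this in the values was not tested.

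Over all cells, Lyzl4 took opposite directions against ATV:RSV: all 3 mice of day 1 were above the ATV:RSV mice (0.72), and all 3 were below at day 7 (-1.48), day 14 (-0.65) and day 28 (-0.43). The contrast of day 7 with ATV:RSV chose the gene, so its difference from day 1 was not tested. Within the deposited clusters the mice of day 1 were not all above those of ATV:RSV, with 12.7, 8.25 and 2.95 CPM in cluster 0 against 6.43 to 7.11 CPM, and 14.3, 5.05 and 4.93 CPM in cluster 1 against 7.55 to 9.6 CPM, from 3 to 37 UMIs a mouse at day 1.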

How the results depend on the processing

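Of 406 values of single genes in tested contrasts under the alternatives, 378 kept their direction and side of the threshold, 21 changed sign, 6 gained a call and 1 lost it. The values that changed sign were of genes not called. Taking UMIs per cell gave -0.29 for Stox2, -0.16 for Igfbp4 and -0.23 for Rgs7bp at day 28 against day 1, and -0.17 for Sfmbt2 at day 7 against day 1. Stox2 at day 28 against day 1 was also -0.013 with DESeq2 size factors, -0.026 with no filter on low counts and -0.0033 without the 5% of cells with most UMIs. Library size alone gave 0.043 for Stox2 at day 14 against day 1, and within cluster 0 Stox2 at day 28 against day 14 was 0.052 with edgeR and 0.017 with library size alone. Leaving out single mice gave ranges of -0.20 to 0.35 (Stox2) and -0.0022 to 0.16 (Rgs7bp) at day 28 against day 1, and for Stox2 -0.26 to 0.029 at day 14 against day 1 and -0.056 to 0.49 at day 28 against day 14. For the last contrast the ranges were -0.24 to 0.33 (Stox2, cluster 0), -0.0094 to 0.70 (Stox2, cluster 1) and -0.085 to 0.28 (Lyzl4, cluster 1).

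The count of members called at day 28 against day 1 rose from 3 to 5 with library size alone, with Igfbp4 (0.35) and Rgs7bp (0.28) added, was 2 per cell, with Sfmbt2 lost, and was 3 to 4 when single mice were left out, with Igfbp4 added without the day 1 mouse of batch 3. The count of list genes called at day 7 was 2, and 3 with edgeR (Gnao1 added), 4 with library size alone (Gnao1 and Got2 added), 1 with UMIs per cell and 1 to 2 when single mice were left out, with Lyz2 the gene lost. Against ATV:RSV, 11 of 384 member values moved by more than the spread between mice, all at day 1 with library size alone or per cell, and none changed sign. With library size alone they were 0.48 for Lyzl4, 1.59 for Haao, 0.03 for Igfbp4, -1.39 for Sfmbt2 and -0.82 for Rgs7bp. Per cell they were 1.08, 2.18, 0.64, -0.79 and -0.22 for these genes and -0.12 for Stox2. With the replicate block, which pairs the mice of a batch, 3 of 6 members were called at day 28 against day 1 as without it, and no call of a member changed. With 3 mice per group and 18 to 74 UMIs of Stox2 per mouse, the intervals of that gene are wide.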
